A study of Mus musculus with 1 sample.

Results

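The SOX, PAX, FOX, TBX and KLF genes encode 5 families of transcription factors, each named for the DNA-binding domain its members share. Transcripts of these families were examined on 1 Affymetrix mouse expression array. The RNA came from ovarian surface epithelial cells, the single layer of mesothelium-like cells that covers the ovary, and the donors were wild-type mice aged 3 months. The series compares 3 genotypes, and the other 2 were not analysed here, so genotypes were not compared and values have no replicate error. The labels name no strain, do not say how many mice the RNA came from, and do not describe how the cells were isolated or sorted. Members were found by gene symbol, among probe sets that the array's annotation pairs with a single gene. Foxl2 and Tbx18 were left out by that rule. It gave 218 probe sets for 90 genes, out of 34945 probe sets for 18193 genes in all. These 90 are 19 SOX, 8 PAX, 36 FOX, 11 TBX and 16 KLF genes, and 10 further protein-coding genes with such symbols in the reference gene table, among them Pax2 and Klf8, were not analysed here.

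SOX proteins bind and bend DNA through an HMG box, PAX proteins carry a paired domain, FOX proteins a winged-helix forkhead domain, TBX proteins a T-box, and KLF proteins a row of zinc fingers that recognise GC-rich and CACCC sequences. Many SOX, PAX, FOX and TBX genes are patterning genes of the embryo that stay active in a few adult tissues. Others, such as the FOXO factors downstream of insulin and AKT signalling and many KLF factors, are transcribed in most cell types. In the female tract, PAX8 and SOX17 are known from the oviduct and uterine epithelium, and FOXJ1 from ciliated cells.

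The array gives 1 intensity for each probe set on a linear scale, here from 6 to 32341 with a median of 41. A gene was called above background when its brightest probe set exceeded 46.5 (5.54 on the log2 scale). This limit is the 95th percentile of 126 probe sets for keratin-associated proteins and for bitter taste, vomeronasal and olfactory receptors, whose median was 13. Probes differ in how strongly they bind, so intensities of different genes were not ranked. Sry, the Y-linked founder gene of the SOX family, gave a check on the limit, because an ovary has no Y chromosome. Its 2 probe sets read 77 and 10, while 13 probe sets for 6 further Y-linked genes lay between 8 and 27. The limit was thus passed by 1 probe set of a gene that this tissue lacks, and 13 of the 46 members above background had no probe set above the 77 of Sry. They were Sox10, Sox13, Sox14, Pax6, Foxa2, Foxe3, Foxf1, Foxh1, Foxn4, Tbx2, Tbx4, Klf12 and Klf14. No count over all genes was made at 77. At 84.8, the 99th percentile of the background set, 33 members and 10062 of all genes passed, against 46 and 11432 at 46.5. Of 14 measured genes of other organs 2 passed at 46.5, Ins2 at 100 and Prm1 at 57 on its brightest probe set.

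The tissue label was checked against marker genes. All 7 surface epithelium and mesothelium markers were above background, with Krt8 at up to 4573, Krt18 at 3377 and Krt19 at 4897. All 3 smooth muscle markers were also above it. So were all 3 fibroblast markers, on Col1a1 at 8290 and 6440, Dcn at 15048 and 47, and Pdgfra at 916, 38 and 29. Of the macrophage markers, Csf1r read 527, 214 and 80, C1qa 244 and Adgre1 47, so all 3 passed, the last at the limit. Of the granulosa cell markers, Inha at 1438 and Amh at 58 passed and Fshr at 34 did not. Of the endothelial list 1 of 6 members passed, Esam at 1785, while Pecam1 read 14, Cdh5 at most 23 and Tek 21. Of the oviduct list 1 of 4 passed, Krt7 at 8204, and Ovgp1 read 35, Cdhr4 at most 24 and Dnah5 13. None of 3 oocyte markers passed, with Zp3 at 20, Gdf9 at 42 and Bmp15 at 18 or less, and neither did 2 lymphocyte markers and 2 glial markers. The lymphocyte marker Cd3e, at 46, lay less than 1 unit under the limit. In such a bulk sample, few cells with much of a transcript and many cells with little cannot be told apart.

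Of the 90 members 46 (51.1%) were above background, against 62.8% of all 18193 genes. The families differed: 13 of 16 KLF genes passed (81.2%), 19 of 36 FOX genes (52.8%), 10 of 19 SOX genes (52.6%), 2 of 8 PAX genes (25.0%) and 2 of 11 TBX genes (18.2%). A gene with more probe sets has more chances to pass, since 47.3% of genes with 1 probe set were above background and 94.9% of those with 6 or more. At the shares of all genes with the same numbers of probe sets, 60.8 of the 90 members would pass. That figure was 11.1 for KLF, 23.6 for FOX, 13.1 for SOX, 5.9 for PAX and 7.0 for TBX. The KLF count lay close to its figure, and the PAX and TBX counts were far below theirs. With 1 array these are descriptions, and no test between families was made. Counting probe sets in place of genes, 93 of 218 (42.7%) lay above the limit, against 55.1% of all named probe sets.

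**Figure D1:**
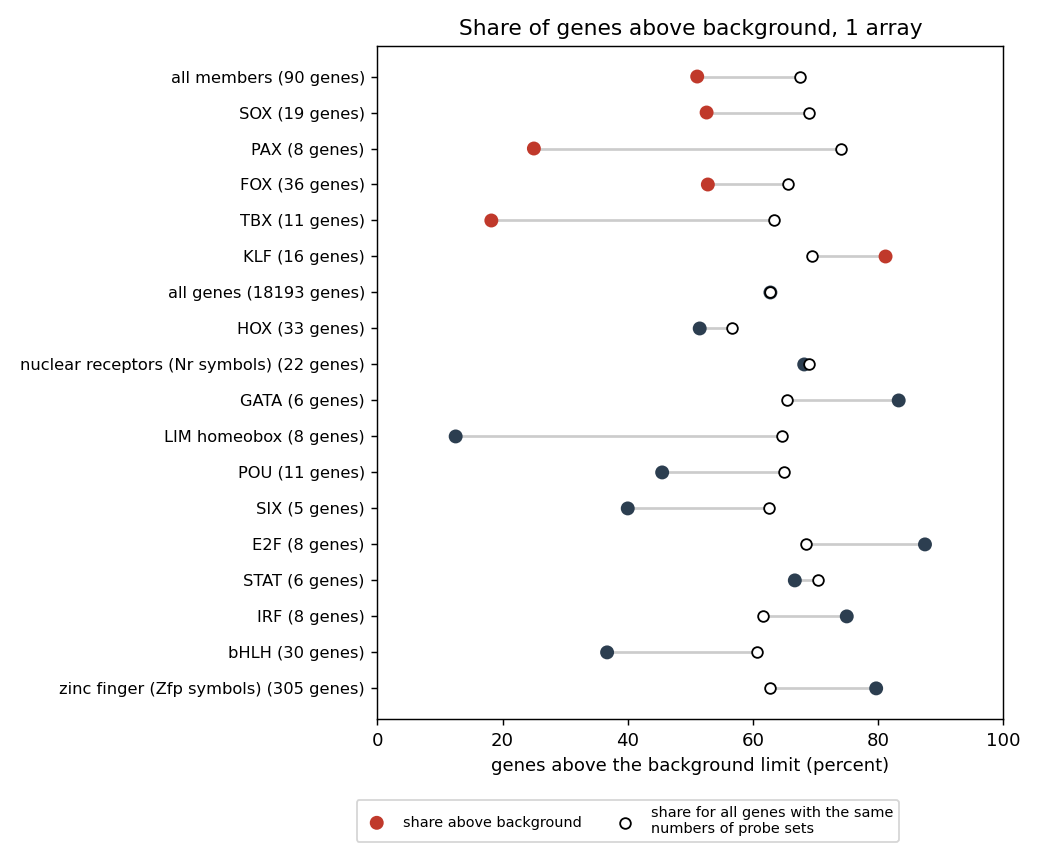
Percent of genes above the background limit (x axis) in the 5 families (red), in all genes and in 11 other transcription factor families (dark), with open circles at the share of all genes that have the same numbers of probe sets. PAX at 25.0% and TBX at 18.2% sit far to the left of their open circles at 74.0% and 63.4%, and KLF at 81.2% sits to the right of its circle at 69.5%.

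Similar spreads were seen among 11 other transcription factor families, drawn by gene symbol and so not always complete. Of 442 genes in them 316 (71.5%) were above background, and 277.3 would be at the shares for their numbers of probe sets. The LIM homeobox genes had 1 of 8 above background (12.5%). A part of the basic helix-loop-helix genes, those with Bhlh, Hes, Hey, Hand, Twist, Neurod, Neurog, Atoh or Ascl symbols, had 11 of 30 (36.7%). The E2F genes had 7 of 8 (87.5%) and the GATA genes 5 of 6 (83.3%), so shares as low as those of PAX and TBX and as high as that of KLF both occurred elsewhere. The large Zfp zinc finger family had 243 of 305 above background, against 191.3. Without it, the other 10 families had 73 of 137 (53.3%), against 86.0.

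KLF genes had the largest share above background of the 5 families. The Klf9 group, repressors and activators that bind GC-rich promoter boxes, had all 6 measured members above it. These genes have 1, 3 or 7 probe sets. Over all genes 47.3% with 1 probe set passed, 82.9% with 3 and 94.9% with 6 or more. Klf9, a factor induced by glucocorticoids and a partner of the progesterone receptor in the uterus, had 7 probe sets at 5189, 4487, 3436, 657, 411, 81 and 22. All but the last lay above the limit, and the SD between them was 3.05 on the log2 scale, a spread between probe sets and not a replicate error. Klf13, known from chemokine expression in T cells, read 876, 277 and 24. Klf10 and Klf11, early response genes of TGF-beta signalling, had 1 probe set each, at 585 and 251. Klf16 read 256, and Klf14, an imprinted gene, read 68, under the level of the Sry probe set.

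In the Klf2 group, whose genes have 1 to 5 probe sets, 5 of 6 members were above background. Over all genes the share was 47.3% with 1 probe set, 71.8% with 2, 82.9% with 3, 88.0% with 4 and 91.4% with 5. Klf6, an injury-response factor, had 5 probe sets at 750, 533, 384, 55 and 15. Klf7 was above the limit on all 4 probe sets, at 374, 368, 190 and 100, and Klf4, an epithelial differentiation factor used in reprogramming, on both of its probe sets, at 266 and 160. Klf2, the shear-stress factor of endothelium, read 107, while 5 of 6 endothelial markers were at background. Klf5, a factor of proliferating intestinal epithelium, passed on 1 of 3 probe sets, at 179, with the others at 32 and 13. Klf1, the erythroid factor that switches on beta-globin, was the member of this group at background, at 25.

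Of the repressors related to Klf3, Klf3 itself passed on 6 of 7 probe sets, at 2142, 305, 194, 132, 81 and 47, with 34 on the last. The 47 exceeds the limit by less than 1 unit of intensity. Klf12 read 76, 71, 41, 14 and 12. Klf15, a fasting-response gene of liver and muscle, read 19, and Klf17, a gene of germ cells and early embryos, read 22, 15 and 13. The SP factors, which share the KLF zinc fingers, were above background for 5 of 7 measured genes, against 4.3 at the shares for their numbers of probe sets. Sp1 read 1894, 595 and 65, Sp3 read 1123, and Sp4 read 37 and 29.

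**Figure D2:**
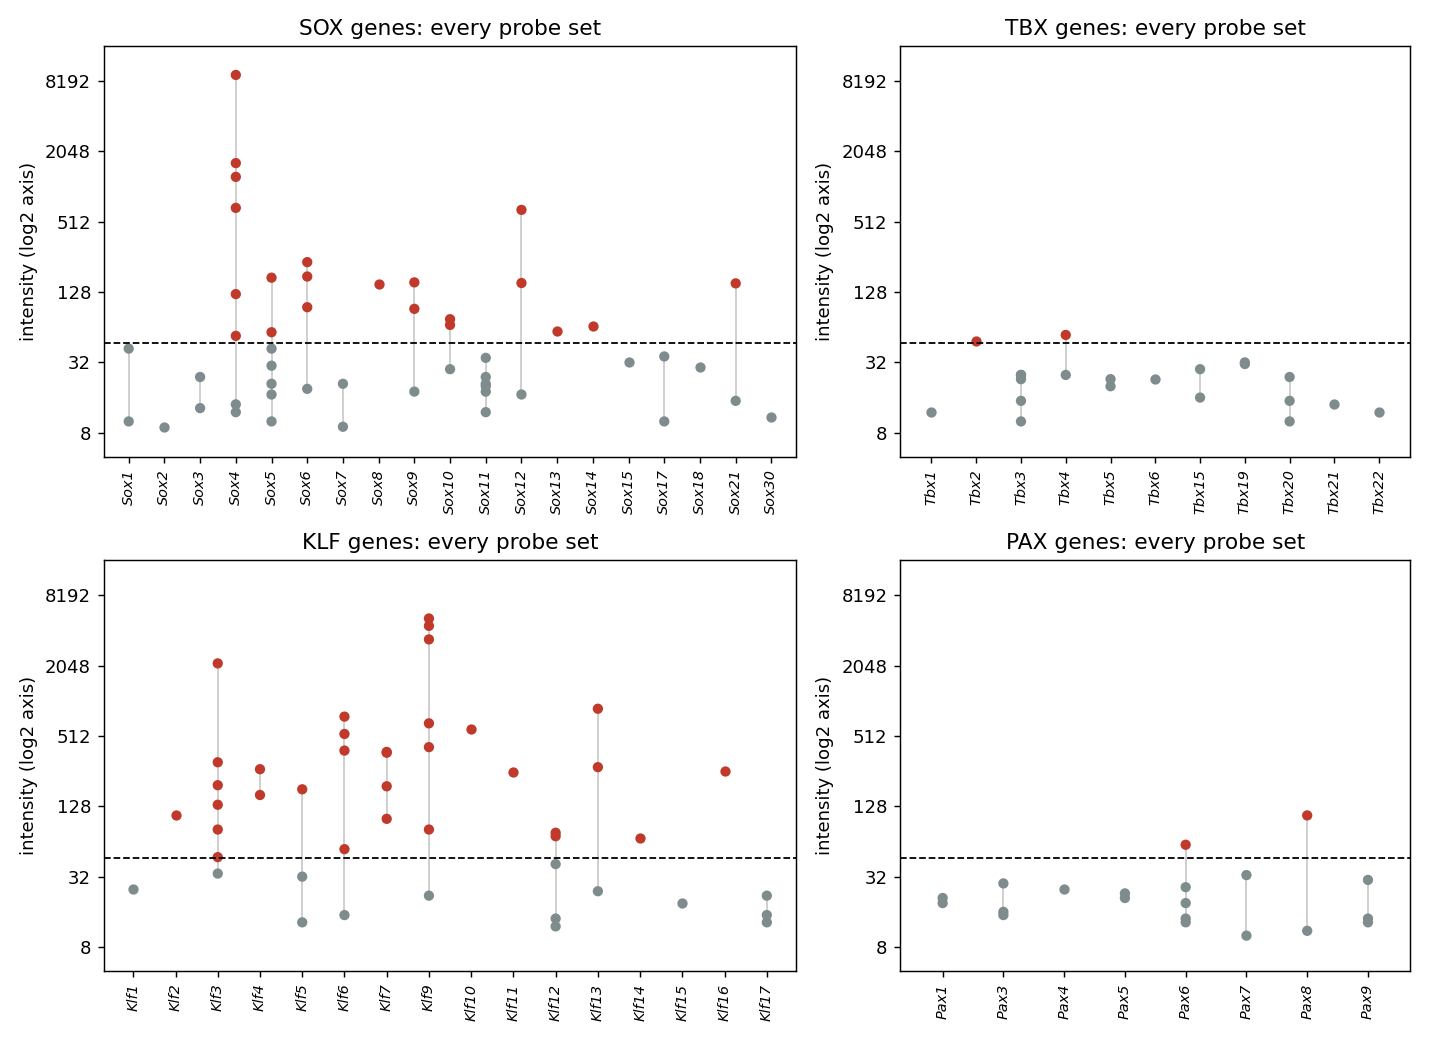
Intensity of every probe set (y axis, log2 scale) for each SOX, TBX, KLF and PAX gene, with the background limit of 46.5 as a dashed line; points above it are red, and grey bars join the probe sets of a gene. Most KLF genes have points above the line, whereas the TBX genes lie at or under 55 and the PAX genes at or under 107.

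FOX genes were divided along the alphabet, a grouping chosen after the values were seen and not one of descent. Of 16 genes with the letters A to I, 5 were above background, and of 18 with the letters J to P, 13 were. Genes with the same numbers of probe sets would give 8.9 and 13.5. The 5 genes of the first set that passed read between 55 and 98. In the second set 12 of 18 had a probe set above 93.0, which is the limit raised by 1 on the log2 scale. In the first set 1 of 16 did. Of all genes 54.1% did, a share not matched for numbers of probe sets.

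FOXO factors stay in the nucleus when AKT signalling is low and then switch on genes of cell cycle arrest, antioxidant defence and apoptosis. All 3 measured FOXO genes were above background. Of all genes with 4, 3 and 2 probe sets, as Foxo1, Foxo3 and Foxo4 have, 88.0%, 82.9% and 71.8% passed. Foxo1 had probe sets at 838, 404, 238 and 22, Foxo3 at 1185, 366 and 15, and Foxo4 at 217 and 42. Of the genes that act on FOXO proteins all 8 measured were above background, against 6.3 at the shares for their numbers of probe sets. Akt1, the kinase that excludes FOXO from the nucleus, read 1783, 364, 52 and 48, Akt2 read 871, 152 and 132, and Sgk1, a related kinase, read 500. All 12 genes listed as FOXO targets passed too, against 8.8. The cell cycle inhibitor Cdkn1b read 1686 and 20, the pro-apoptotic Bcl2l11 read 681, 649, 141, 43 and 42, and the mitochondrial antioxidant enzyme Sod2 read 2142, 2008, 221 and 43. The median level was 10.11 for the regulators and 10.18 for the targets on the log2 scale, beside 7.06 over all genes. A level is that of the brightest probe set, so it rises with the number of probe sets, and over all genes with the same numbers of them the medians were 8.70 and 7.95. Probes also differ in binding, so no difference is read from the medians of lists. Whether FOXO proteins drive these targets here cannot be read from transcript levels.

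FOXP factors are repressors that work as dimers. Foxp1 had 6 of 8 probe sets between 320 and 837, with the other 2 at 23 and 22. Foxp4 had all 3 above the limit, at 130, 119 and 66. Foxp2, best known from brain and lung, had 6 probe sets between 9 and 26, all at background, and Foxp3, the regulatory T cell factor, read 16. The T cell marker Cd3e read 46 and the B cell marker Cd79a 20. Cd79a would stay under each limit tried. The Cd3e value exceeds the limits of 45.3, 42.0, 29.3 and 25.5, which come from other choices of identifiers, background set or percentile.

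Of the FOXN and FOXK genes, Foxn3, a checkpoint repressor, was above the limit on all 4 probe sets, at 957, 931, 189 and 141. Foxn2 read 425 and 17. Foxn4, a factor of retinal progenitors, read 72, and Foxn1, the thymic epithelial factor, read 16 and 11. Foxk2 passed on 3 of 5 probe sets, at 514, 487 and 233, with 40 and 33 on the others. Foxk1 read 298, 37 and 14. Foxj2 and Foxj3 had 1 bright probe set each, at 578 and 1341, and their others read 20 for Foxj2 and 44 and 12 for Foxj3. Foxj1, the master regulator of motile cilia, read 20, and the ciliary dynein gene Dnah5 read 13.

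Foxm1, which drives genes of mitosis, passed on 3 of 4 probe sets, at 103, 57 and 48, with 10 on the last. All 9 measured genes listed as FOXM1 targets were above background, against 5.6 at the shares for their numbers of probe sets, and their median was 7.51 on the log2 scale, beside 7.03 over all genes with the same numbers of probe sets. The mitotic kinase Plk1 read 166, the cyclin Ccnb2 428 and the kinase Aurkb 76 and 72.

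The remaining FOX genes are mostly organ patterning factors. Foxs1, described in cells of the vessel wall, had a single probe set at 411. The smooth muscle genes Acta2, Tagln and Myh11 were above background beside it, with 23141, 22357 and 764 on their brightest probe sets, and their part in the Foxs1 value was not tested. Foxc2, a factor of lymphatic vessels and mesenchyme, read 98, and Foxc1, its close relative, read 33 and 13. Foxf1, a target of hedgehog signals in gut and lung mesenchyme, read 55 and 30, and Foxf2 read 23 and 19. Foxa2, a factor of liver and uterine glands, read 62, Foxe3, a lens gene, 56, and Foxh1, a partner of SMAD proteins in the embryo, 76, 16 and 12. These last 4 passing genes lay below the Sry probe set. At background were Foxa1 at 14, Foxa3 at 17, Foxb1 at 12, Foxb2 at 26, Foxd1 at 11, Foxd2 at 27 and 21, Foxd3 at 29, Foxd4 at 13, Foxi1 at 19, Foxl1 at 23 and Foxq1 at 41 and 11.

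**Figure D3:**
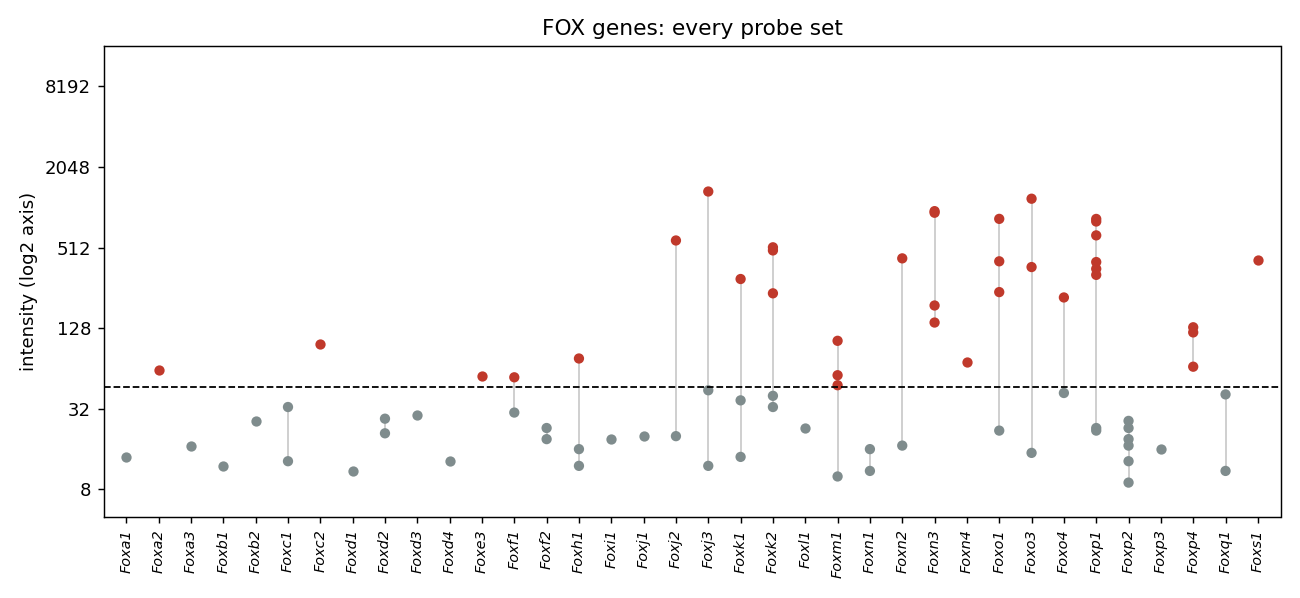
Intensity of every probe set (y axis, log2 scale) for the 36 FOX genes in alphabetical order, with the background limit of 46.5 dashed and points above it in red. From Foxa1 to Foxi1 no point exceeds 98, and from Foxj2 to Foxp4 most genes have a point above the line.

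SOX genes are given by subgroup. Of the 19, 5 kept their call under every alternative that measured them, a count not given over all genes. A limit of 25.5, the 90th percentile of the background set, would add Sox1, Sox11, Sox15, Sox17 and Sox18. Sox4 and Sox12, SOXC factors active in progenitor cells and in many tumours, were above background, and their close relative Sox11, a neural gene, was not. Sox4 had 8 probe sets at 9247, 1627, 1240, 673, 123, 54, 14 and 12. The first 6 lay above the limit, and the SD between the 8 was 3.47 on the log2 scale. Sox12 read 647, 153 and 17. Sox11 had 6 probe sets between 12 and 35.

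All 3 SOXD genes, whose proteins lack an activation domain of their own, were above background. Sox5 passed on 2 of 7 probe sets, at 170 and 58, with the other 5 between 10 and 42. Sox6 read 231, 174, 95 and 19, and Sox13 read 59. The 231 and the 59 come from probe sets whose identifiers mark probes that may be shared or cross-hybridise. All 3 SOXE genes passed as well. The figures at the shares for their numbers of probe sets were 2.3 for SOXD and 2.1 for SOXE. Sox9, the factor of Sertoli cells and cartilage, read 155, 92 and 18, its relative Sox8 read 151, and Sox10, the neural crest and glial factor, read 75, 67 and 28. The glial marker Gfap had 3 probe sets at 35, 18 and 13, all at background. Of 7 genes that mark Sertoli cells or act with SOX9 in the testis, 5 were above background, against 4.0 at the shares for their numbers of probe sets. Anti-Müllerian hormone, Amh, read 58, Ptgds read 269 and 120, and Dhh, a hedgehog ligand, read 78 and 30. The Amh value lies under the 77 of the Sry probe set. The 2 genes of the list at background were the testis factors Dmrt1 at 14 and Gata1 at 20.

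The SOXF genes Sox7, Sox17 and Sox18, known from endothelium, were all at background, against 1.9 of 3 passing at the shares for their numbers of probe sets. Sox17, also a gene of oviduct and uterine epithelium, read 36 and 10, Sox7 read 21 and 9, and Sox18 read 29. The SOXB1 genes of neural and pluripotent cells were at background too, with Sox1 at 42 and 10, Sox2 at 9, and Sox3 at 24 and 13. Of the SOXB2 pair, Sox21 had 1 probe set at 152 and another at 15, and Sox14 read 65. Sox15 read 32 and Sox30, a gene of spermatogenesis, 11.

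PAX genes were at background apart from Pax8 and Pax6. Pax8, a factor of Müllerian duct, thyroid and kidney, read 107 and 11, so its call rests on 1 of 2 probe sets. Pax6, the eye factor, passed on 1 of 5 probe sets, at 60, with the others between 13 and 26. The B cell factor Pax5, of the Pax8 subgroup, read 23 and 21, and Pax4, a pancreatic islet gene related to Pax6, read 25. The skeletal muscle precursor genes Pax3 and Pax7 had highest values of 28 and 33, and the skeletal patterning genes Pax1 and Pax9 had 21 and 30. PAX proteins act with EYA and DACH proteins and homeodomain factors in several organs. Of 12 measured genes of that list 4 were above background, against 8.6, with a median of 5.04 on the log2 scale, beside 7.94 over all genes with the same numbers of probe sets. Eya1 had 3 probe sets at 15, 14 and 10, Eya2 read 15, and Eya3 read 344, 156, 29 and 11.

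TBX genes had no value over 55. Tbx2, a repressor that blocks senescence, read 49, and Tbx4, the hindlimb and lung factor, read 55 and 25. Both stood next to the limit and below the Sry probe set. Tbx3, the nearest relative of Tbx2, had 5 probe sets between 10 and 25, and Tbx5, of heart and forelimb, read 23 and 20. At background were also Tbx1 at 12, Tbx6 at 23, Tbx15 at 28 and 16, Tbx19 at 32 and 31, Tbx20 at 24, 15 and 10, Tbx21, the T helper cell factor, at 14, and Tbx22 at 12. Of 3 measured T-box genes with other names, Mga, a partner of MAX, was above background with 379, 299, 33, 24 and 16. Eomes read 40 and 30 and Tbr1 read 12.

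Corepressors of the Groucho, CTBP, SIN3 and histone deacetylase kind are recruited by factors of these families. All 12 measured genes of that list were above background, against 8.1 at the shares for their numbers of probe sets, with a median of 10.07 on the log2 scale, beside 7.57 over all genes matched in that way. The Groucho-type corepressor Tle1 read 272 and 261, Tle2 read 61, and Tle3 read 1278, 211, 191 and 88.

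Probe sets of the same gene often disagreed. Of 54 members with several probe sets, 28 had values on both sides of the limit, 4 (Foxn3, Foxp4, Klf4 and Klf7) had all above it, and 22 had none. Over all genes 4204 of 9010 (46.7%) lay on both sides, 2888 had all above the limit and 1918 had none. With a rule that asks every probe set to be above the limit, 18 of 90 members (20.0%) passed, against 39.7% of all genes. The median SD between probe sets of a member was 1.29 on the log2 scale, close to 1.39 over all genes. Among members on both sides, probe sets designed on a RefSeq mRNA passed in 8 of 10 cases and those designed on other sequences in 58 of 100. The shares over all such genes were 69.9% and 53.3%. Some identifiers mark probes that may be shared or cross-hybridise, among them those of Foxo1 at 838 and Foxm1 at 57. Without marked probe sets 43 of 84 measured members passed, at a limit of 45.3, against 59.2% of 16591 genes.

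Calls were also set side by side for members that neighbour each other. Among members with at most 2 protein-coding genes between them in the GRCm38.p6 gene order there were 9 pairs, and 6 had the same call. Over all genes measured, 62.9% of 16133 pairs placed in this way had the same call. Both were above background for Foxf1 and Foxc2, for Klf5 and Klf12 and for Tbx2 and Tbx4. Both were at background for Foxq1 and Foxf2, for Foxf2 and Foxc1 and for Tbx3 and Tbx5. The calls differed for Foxc2 and Foxl1, for Foxd2 and Foxe3 and for Pax1 and Foxa2. The pairs share genes and are too few to be read as more than a description.

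Promoter sequence was compared with the calls, since the choice of members did not use it. The 250 bases before the gene start were taken from RefSeq windows on GRCm38.p6, which matched 61 of the 90 members, with the median taken where a gene had several. CpG content is given as observed over expected, where a value of 0.6 or more is often used to mark a CpG island. Among all genes with a window, the median was 0.73 for 9267 genes above background and 0.32 for 5185 that were not. Among members it was 0.80 for 31 above background and 0.62 for 30 that were not. A value of at least 0.6 was found in 60.0% of the members at background, against 24.4% of all genes at background. In the 11 other transcription factor families it was found in 43.4% of the genes at background. No test was made between these shares, since genes are not replicates.

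The promoters below show 2 pairs of relatives with opposite calls, Klf4 with Klf1 and Foxn3 with Foxn1. They also show Foxp4 as a gene above background and Foxa1 and Foxc1 as genes at background, each with a CpG-rich start. Each run gives the 250 bases before the start, 5′ to 3′ on the gene's strand, with CpG pairs in capitals. Klf4, above background, lies at chr4:55532476-55532725 (- strand) and Klf1, at background, at chr8:84901732-84901981 (+ strand). Foxn3, above background, lies at chr12:99450075-99450324 (- strand), Foxn1, at background, at chr11:78386609-78386858 (- strand) and Foxp4, above background, at chr17:47924633-47924882 (- strand). Foxa1 and Foxc1, both at background, lie at chr12:57546112-57546361 (- strand) and chr13:31806396-31806645 (+ strand).
Klf4: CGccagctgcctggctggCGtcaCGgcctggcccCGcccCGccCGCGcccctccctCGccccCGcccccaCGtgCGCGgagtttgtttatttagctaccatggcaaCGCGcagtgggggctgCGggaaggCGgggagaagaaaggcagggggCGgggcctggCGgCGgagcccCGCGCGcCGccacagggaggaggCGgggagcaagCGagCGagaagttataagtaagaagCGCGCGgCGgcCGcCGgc
Klf1: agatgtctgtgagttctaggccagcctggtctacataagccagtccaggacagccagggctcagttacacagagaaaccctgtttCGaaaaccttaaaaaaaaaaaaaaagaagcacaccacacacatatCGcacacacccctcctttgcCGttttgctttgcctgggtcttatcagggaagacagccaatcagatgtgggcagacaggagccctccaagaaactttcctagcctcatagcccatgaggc
Foxn3: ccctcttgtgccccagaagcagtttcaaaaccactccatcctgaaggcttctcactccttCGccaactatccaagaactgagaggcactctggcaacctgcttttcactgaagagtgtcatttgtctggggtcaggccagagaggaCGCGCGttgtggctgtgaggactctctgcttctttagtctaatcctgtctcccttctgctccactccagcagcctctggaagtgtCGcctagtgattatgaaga
Foxn1: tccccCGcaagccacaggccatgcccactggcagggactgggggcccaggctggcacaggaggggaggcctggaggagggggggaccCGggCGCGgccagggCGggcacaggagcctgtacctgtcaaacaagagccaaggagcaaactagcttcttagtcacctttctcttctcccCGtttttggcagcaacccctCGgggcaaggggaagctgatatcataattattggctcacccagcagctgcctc
Foxp4: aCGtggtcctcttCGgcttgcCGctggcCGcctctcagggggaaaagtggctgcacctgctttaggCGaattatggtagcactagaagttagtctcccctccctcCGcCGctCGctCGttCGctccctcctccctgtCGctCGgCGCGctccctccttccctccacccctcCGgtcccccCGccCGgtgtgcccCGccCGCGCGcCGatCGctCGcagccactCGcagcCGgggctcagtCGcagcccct
Foxa1: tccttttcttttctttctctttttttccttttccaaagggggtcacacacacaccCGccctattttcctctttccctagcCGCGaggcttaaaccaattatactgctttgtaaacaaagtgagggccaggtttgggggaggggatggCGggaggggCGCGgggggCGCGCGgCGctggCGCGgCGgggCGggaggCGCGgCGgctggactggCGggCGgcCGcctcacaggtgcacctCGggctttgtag
Foxc1: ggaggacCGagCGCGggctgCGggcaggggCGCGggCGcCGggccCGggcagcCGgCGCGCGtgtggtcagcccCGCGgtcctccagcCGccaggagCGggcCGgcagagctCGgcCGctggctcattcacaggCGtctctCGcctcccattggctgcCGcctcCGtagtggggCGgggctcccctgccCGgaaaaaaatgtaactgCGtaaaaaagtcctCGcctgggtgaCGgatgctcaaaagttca

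Klf4 had 32 CpG pairs in this stretch (0.94 observed over expected) and Klf1 had 3 (0.20). Klf2 and Klf7, also above background and in the same group but not printed, had 29 (0.92) and 13 (0.75). Foxp4 had 27 pairs (0.96). Foxa1 and Foxc1, with no probe set above the limit, had 21 and 29 pairs (0.89 and 0.93), as many as genes that were above it. Foxn3, with all 4 probe sets above the limit, had 5 pairs (0.30), close to Foxn1 with 7 (0.28), and a gene can have starts that this table does not hold. Their relative Foxn4, above background at 72 and not printed, had 17 pairs (0.69), unlike both. Foxp3, the relative of Foxp4 at background, had 0.68 and 0.53 in its 2 windows. Foxa2, the relative of Foxa1 above background, had 0.38, 0.73 and 0.73 in its 3 windows. A CpG-rich stretch was thus seen with either call.

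**Figure D4:**
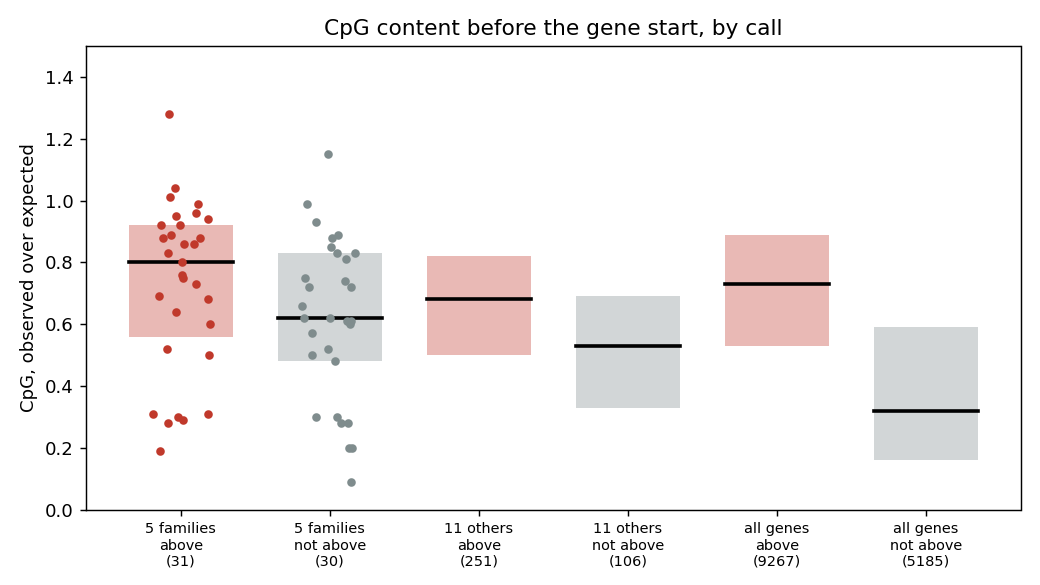
CpG observed over expected in the 250 bases before the gene start (y axis) for genes above and not above background, in the 5 families, 11 other transcription factor families and all genes; bars span the quartiles, black lines are medians, points are single members, and the number of genes is in brackets. The bar for members not above background, with a median of 0.62, sits higher than that for all genes not above background, with 0.32.

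The GC box GGGCGG, a sequence of the kind that SP and KLF proteins bind, was searched on both strands of the same windows. It was present in 22 of 31 members above background (71.0%) and in 21 of 30 at background (70.0%). All genes had it in 65.3% and 32.2% of cases, and 32.7% of all 32851 windows held it. The CACCC-type sequence CCACCC was present in 12 of 31 members above background (38.7%) and 13 of 30 at background (43.3%). All genes had it in 37.9% and 33.9% of cases, and 28.1% of all windows held it. The forkhead sequence GTAAACA was found for 3 members and the SOX sequence AACAATG for 1. Of all genes above background 2.54% and 2.14% had them, and of those at background 3.93% and 3.78%. Counted by window, where a gene can have several, the shares were 3.17% and 3.29%. The T-box sequence AGGTGTGA was in none of the 61 members. It was in 0.831% of all genes above background, 1.60% of those at background and 1.12% of all windows. CCACCC and GGGCGG can lie in the same stretch, and a match of letters is not a bound site.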

How the data were processed

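Total RNA was labelled as biotinylated cRNA, per the labels' protocols. The deposited table holds 1 intensity per probe set, 45101 in all, as whole numbers on a linear scale. The authors used affy and RMA, per the submitters' processing notes; RMA corrects background, normalizes between arrays and shrinks differences between low intensities. Tool versions, the arrays normalized together and the step back to linear numbers were not given in the sources used here. At the limit, rounding to whole numbers shifts values by at most 0.0154 (log2).

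Intensities were put on the log2 scale and named through the platform annotation. Probe sets with several symbols (932), with none (9160) and controls (64) were left out. Gene numbers of 34741 of 34945 named probe sets matched GRCm38.p6. A gene took the value of its brightest probe set. The lists of Y-linked genes and of genes of other organs, with 1 of 7 and 2 of 14 measured genes above background, served as alternative backgrounds. They hold only 15 and 21 probe sets, so their limits depend on single values. The Y-linked limit of 42.0 lies between the Sry value of 77 and the next value, 27. The other limit, 57.0, is the value of 1 Prm1 probe set. The members and lists were chosen with earlier results of these data known. Every member was named; of other lists, the first 3 measured genes, with Esam, Dnah5, Dmrt1 and Gata1 added after their values were seen. Values chosen after they were seen are the alphabetical FOX sets, the Sry comparison, the sources of probe sets and the motifs. Counting was tested on simulated probe sets, with silent genes drawn from the same background values that set the limit. This checks the counting only and cannot show how often silent genes pass on the array. With 1 array the precision of every value is unknown, and no p-value is given. Comparing protein sequences between relatives was planned and was not done. Tables were handled with pandas 2.3.3 and NumPy 2.4.6 under Python 3.11.15, and plots drawn with matplotlib 3.10.9.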

Additional observations from a re-analysis of the deposited data

Results flagged for a closer look

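Probe sets shared by several genes entered no count, and 2 of them cover a member. The probe set shared by Foxo3 and another gene read 60, and the one shared by Foxm1 and other genes read 66. Both were above the background limit of 46.5, and their signal cannot be assigned to 1 gene.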

How the results depend on the processing

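There were 8 alternatives fixed at the outset and 1, the limit raised by 1 on the log2 scale, chosen after seeing the data. The main counts were 46 members, 10 SOX, 2 PAX, 19 FOX, 2 TBX and 13 KLF genes. Taking each gene's lowest probe set, the counts were 18 in all, 3 SOX, 0 PAX, 7 FOX, 1 TBX and 7 KLF. With the mean of the probe sets PAX had 0 and TBX 1. A limit at the 90th percentile gave PAX 5 and TBX 4, and at the 99th PAX had 1 and TBX 0. The raised limit gave PAX 1 and TBX 0. With olfactory and vomeronasal receptors as background PAX had 4, and with genes of other organs TBX had 0. The remaining counts stayed within 1.5 times the main count. KLF had the highest share and PAX and TBX the 2 lowest in all 10 settings, the main one included. The settings reuse the same values and are not independent. The limits of 84.8 and 93.0 gave the same count in every family. The SOX share exceeded that of all genes in 2 of 10 settings, at the 90th percentile (78.9% against 73.2%) and with receptor genes as background (73.7% against 70.5%). In all, 39 of 90 members kept their call under every alternative that measured them, 11 above and 28 at background. Another count put 14 members within 0.5 of the limit on the log2 scale. Neither count is given over all genes, so whether these families differ from other genes in this is not known. The precision of the array is not known from 1 sample.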
